A study of Homo sapiens with 24 samples.

Results

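Asparaginase was added to ibrutinib in Sem, a human leukaemia line of early B cells with a rearranged KMT2A gene, and the RNA of 3 libraries of cells given both drugs (the combination) was set against that of 3 libraries of cells given ibrutinib alone. The members were chosen by their labels and not by any measured value: they are 6 of the 24 libraries of the series, and every gene with at least 1 FPKM in at least 3 of the 12 Sem libraries was tested, which left 13417 of 58735 genes. Cells of both groups received 10 µM ibrutinib for 24 h, so ibrutinib is shared and asparaginase is what differs. The asparaginase dose stands as 1 IU/ml in the sample characteristics and as 0.5 IU/ml in the treatment protocol, and the sources do not settle which was used. The rest of the series consists of Sem cells given asparaginase alone or left untreated, and of Nalm6 cells, a second leukaemia line of early B cells, in the same 4 conditions, each with 3 libraries. Sem is a single line, the untreated cells have no stated harvest time, and the samples are described only as triplicates, so every p-value here rests on library-to-library spread alone, and that spread could be technical.

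Asparaginase is an enzyme that breaks down asparagine, and also glutamine, outside the cell, and it is a standard drug for acute lymphoblastic leukaemia, whose cells often make too little asparagine of their own. When amino acids run short, uncharged transfer RNAs activate the kinase GCN2, which phosphorylates the initiation factor eIF2. General translation then slows, while translation of the transcription factor ATF4 rises, and ATF4 with its partners of the C/EBP family switches on genes of amino acid synthesis, uptake and transfer RNA charging. Ibrutinib inhibits BTK, a kinase that carries signals of the B cell receptor and of its precursor form.

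Between 16.1 and 17.4 M reads were assigned to genes in the combination libraries and between 15.9 and 17.6 M in the ibrutinib libraries, within the 15 to 18.1 M of the series. Deposited values of 1 or more had lost their decimal point, which was put back from the whole reads behind each value before anything was compared. Of 14 markers of B cell precursors, 12 averaged at least 1 FPKM (fragments per kilobase of gene, scaled to library size) in both groups; DNTT and BLNK did not. Their summed level lay between 847 and 871 FPKM with the combination and between 799 and 832 FPKM with ibrutinib, which do not overlap. Single genes separated upward in the same way in 15.9% of all genes tested. Of the 12 markers tested, 3 were higher at an adjusted p under 0.05 in limma (25%, against 4.81% of all genes tested) and 0 lower. IGLL1, whose high level is given below, was not among those 3 (log2 change 0.05). Summed markers of myeloid cells lay at 44.7 to 48.5 FPKM with the combination and 49.0 to 54.8 FPKM with ibrutinib, nearly all from CEBPA, with MPO below 0.1 FPKM in both. Those of T and NK cells lay at 96.8 to 99.7 FPKM with the combination and 84.2 to 91.6 FPKM with ibrutinib, mostly from TRAC, with CD3D at 0 in all 6 libraries. Those of plasma and mature B cells lay at 83.8 to 87.1 FPKM with the combination and 72.9 to 74.2 FPKM with ibrutinib, mostly from MZB1. Those of erythroid and stromal cells lay at 6.37 to 7.02 FPKM with the combination and 6.55 to 6.99 FPKM with ibrutinib. In these bulk libraries, fewer cells of a type and less RNA per cell cannot be told apart.

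Adding asparaginase raised 645 genes and lowered 979 at a Benjamini-Hochberg adjusted p under 0.05 in limma, which are 4.81% and 7.3% of the genes tested, or 12.1% together. Most changes were small. Only 36 of the genes that rose (0.268% of all tested) and 6 of those that fell (0.0447%) changed by at least 2-fold on the scale of log2(FPKM + 1), on which all log2 changes here are given and which understates the fold of genes of low FPKM. The genes changed by at least 1.5-fold numbered 95 higher (0.708%) and 33 lower (0.246%). The median change was 0.31 among genes called higher and -0.24 among genes called lower. The 6 genes that fell by at least 2-fold were 3 small nucleolar RNAs (SNORA75 fell most, at -1.997), a small non-coding RNA, a pseudogene and an antisense gene, each under 5 FPKM in both groups and named after their values were seen. Among genes of at least 5 FPKM that met the naming rule, stress and amino acid genes led by the transcription factor ATF5 rose most, and genes of mitosis led by cyclin B1 fell most. Every fit that left out 1 of the 6 libraries called fewer genes, from 374 higher without combination library 2 to 463 higher without ibrutinib library 3, and from 614 lower without combination library 1 to 758 lower without ibrutinib library 1. In all 6 of these fits 784 genes (5.84% of those tested) were called. The calls without combination library 3 numbered 386 higher and 666 lower, those without ibrutinib library 1 420 and 758, those without ibrutinib library 2 438 and 642, those without combination library 1 447 and 614, and those without combination library 2 374 and 665.

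**Figure D1:**
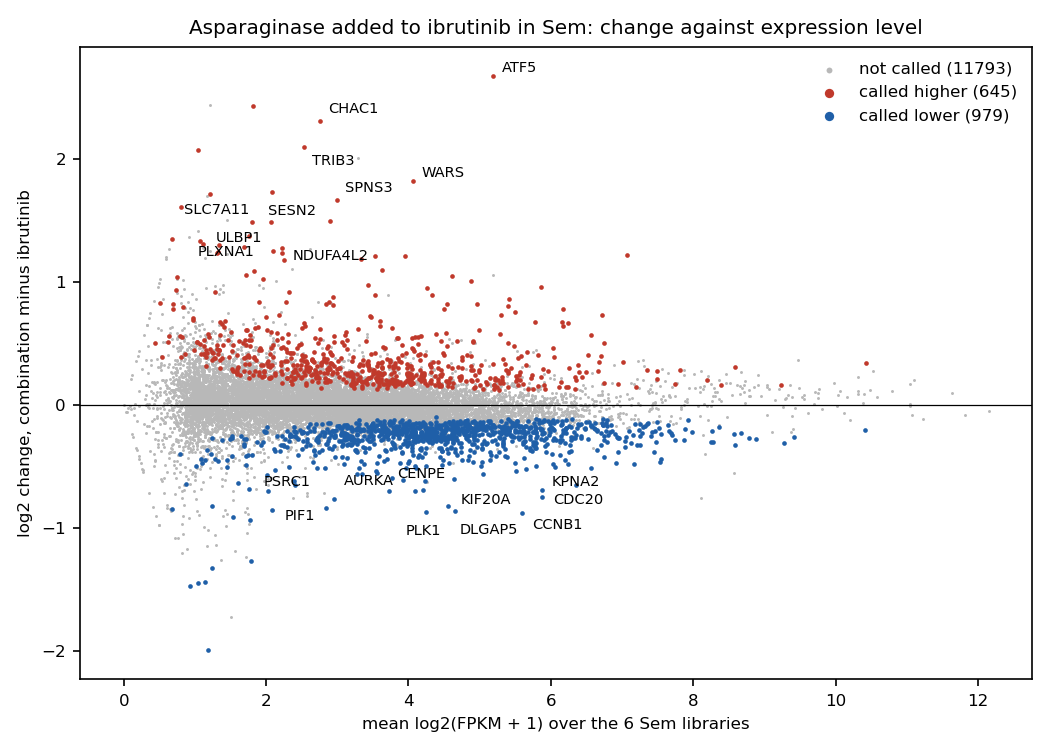
Each point is 1 of the 13417 genes tested; the x axis is the mean log2(FPKM + 1) over the 6 libraries and the y axis the log2 change, combination minus ibrutinib. The 645 genes called higher are red, the 979 called lower are blue, and the 20 labelled genes were picked by size of change among genes called in every fit without 1 library: the upper arm reaches 2.67 (ATF5) and the labelled lower arm -0.88 (CCNB1).

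The regulators of the amino acid and stress response, ATF4 and its partner CHOP, came first. ATF5 (ENSG00000169136, chromosome 19, 49928702 to 49933935, plus strand, GRCh38), a transcription factor whose messenger is itself translated under stress, had 94.2, 90.7 and 88.6 FPKM in the combination libraries, against 13.3, 13.5 and 13.5 FPKM in the ibrutinib libraries. All 3 combination libraries stood far above all 3 ibrutinib libraries, and within each group the values were close together. The log2 change was 2.67 ± 0.0452 (SE, limma adjusted p = 5.6e-11), the largest rise of any gene named here. DDIT3 (ENSG00000175197, chromosome 12, 57516588 to 57521737, minus strand), which encodes CHOP, had 22.6, 20.5 and 24.6 FPKM with the combination, against 9.03, 9.16 and 9.4 FPKM with ibrutinib, a change of 1.21 ± 0.11 (limma adjusted p = 5.4e-05). ATF4 (ENSG00000128272, chromosome 22, 39519695 to 39522685, plus strand), the central factor of the response, had 235, 249 and 254 FPKM with the combination, against 194, 206 and 209 FPKM with ibrutinib. Its groups did not overlap, but the change was small (0.28 ± 0.0522, limma adjusted p = 0.0059).

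Among targets of these factors, CHAC1 (ENSG00000128965, chromosome 15, 40952962 to 40956519, plus strand), an enzyme that degrades glutathione, had 12, 15.9 and 14.4 FPKM in the combination libraries and 1.94, 1.87 and 2.33 FPKM in the ibrutinib libraries (2.31 ± 0.109, limma adjusted p = 3.0e-07). The pseudokinase TRIB3 (ENSG00000101255, chromosome 20, 362835 to 397559, plus strand), which feeds back on ATF4 and CHOP, had 10.8, 10.7 and 11.5 FPKM with the combination, against 1.6, 1.54 and 2.33 FPKM with ibrutinib (2.10 ± 0.111, limma adjusted p = 5.9e-07). For both genes the lowest combination library lay well above the highest ibrutinib library. SESN2, which restrains the growth kinase complex mTORC1, averaged 11.5 ± 0.231 FPKM with the combination and 3.46 ± 0.267 FPKM with ibrutinib (SD, n = 3 each; log2 change 1.49). Of the 25 tested members of a list of ATF4 and CHOP genes, 19 rose and 1, CHAC2, fell (-0.35), with a median change of 0.49, against -0.00 over all genes tested. The fits without 1 library called 15 to 17 of them higher. PPP1R15A, which recruits the phosphatase that reverses eIF2 phosphorylation, averaged 14.1 ± 0.453 FPKM with the combination and 10.9 ± 0.801 FPKM with ibrutinib (0.34, limma adjusted p = 0.035), and its call was lost in each of the 6 fits without 1 library, with a highest adjusted p of 0.11. Of 23 tested eIF2 kinases and translation factors, 3 rose (EIF1 0.50, EEF2 0.34 and EIF4EBP1 0.27). The 4 that fell were EIF4G1 (-0.30), EIF2B3 (-0.30), EIF5 (-0.18) and EIF4A2 (-0.17). The call of EIF5 was lost without combination library 1 or ibrutinib library 2. The shares of this list were 13.0% higher and 17.4% lower, against 4.81% and 7.3% of all genes tested. Of 23 genes of nutrient sensing through mTORC1, 3 rose (13.0%, against 4.81% of all genes tested) and 0 fell. Those that rose were SESN2, its relative SESN3 (0.23) and DDIT4 (0.95), another brake on mTORC1. The call of SESN3 was lost in each of the 6 fits without 1 library, while MTOR itself did not pass the test (-0.08).

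**Figure D2:**
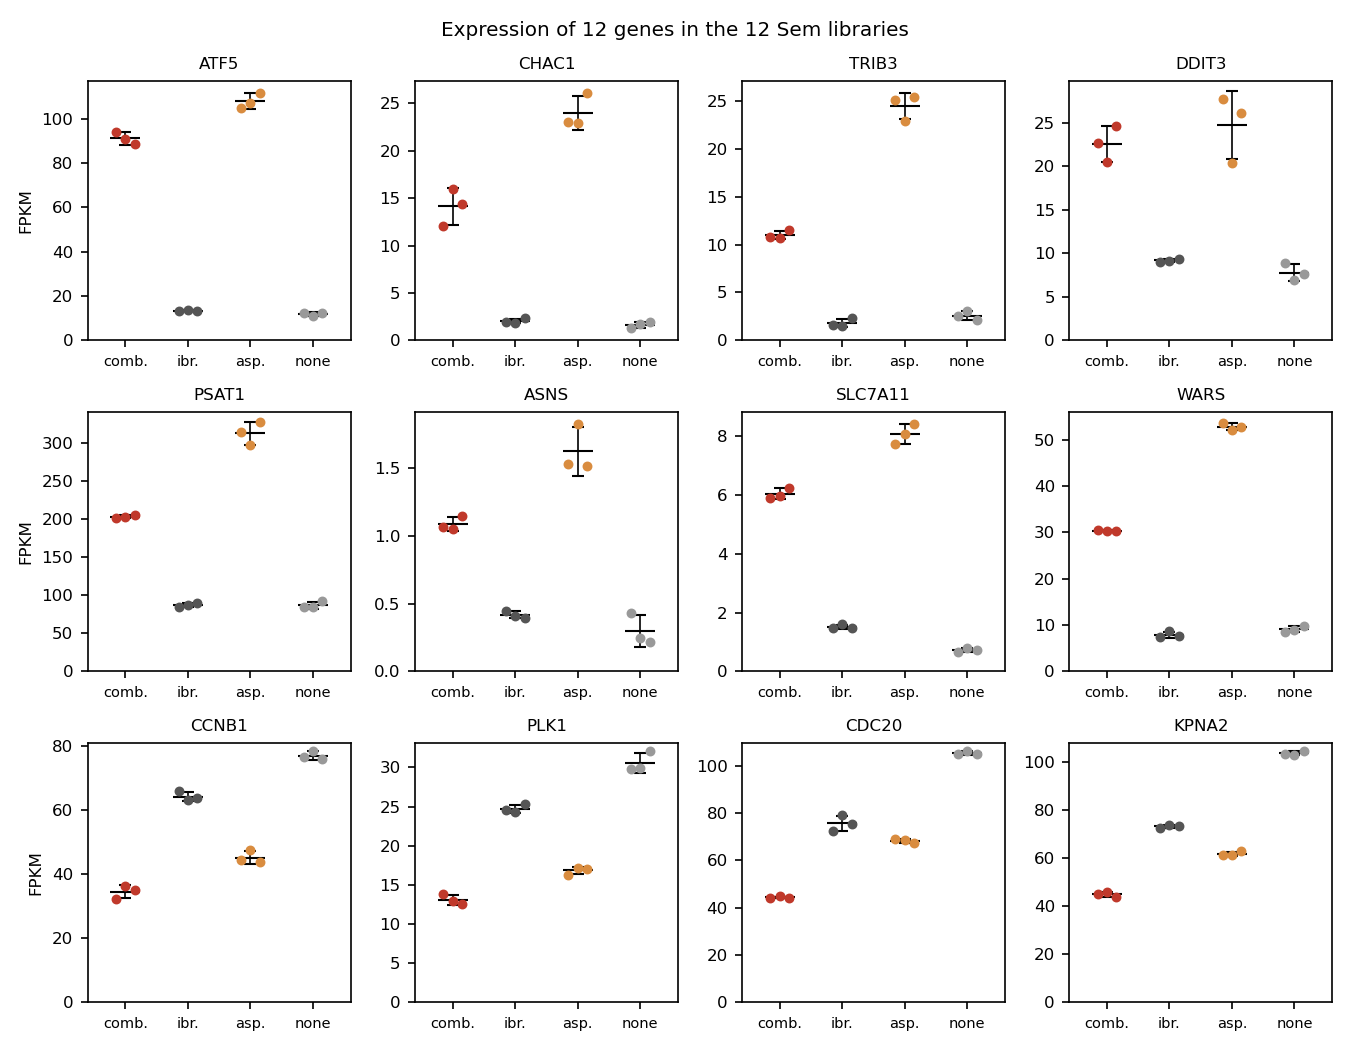
FPKM (y axis) of 12 genes in Sem cells given the combination, ibrutinib, asparaginase or no drug (x axis); points are libraries, and the line and bar are the mean ± SD of 3 libraries. ATF5, CHAC1, TRIB3, DDIT3, PSAT1, ASNS, SLC7A11 and WARS stand higher with the combination than with ibrutinib, and CCNB1, PLK1, CDC20 and KPNA2 stand lower.

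Of 25 tested enzymes of amino acid synthesis and of folate-bound carbon transfer, 10 rose and 5 fell, with a median of 0.00. The shares were 40% higher and 20% lower, against 4.81% and 7.3% of all genes tested. ASNS (ENSG00000070669, chromosome 7, 97852118 to 97872542, minus strand), the synthetase that makes asparagine, was low in Sem: it had 1.07, 1.05 and 1.15 FPKM in the combination libraries, against 0.449, 0.413 and 0.396 FPKM in the ibrutinib libraries. The groups did not overlap (0.56 ± 0.106, limma adjusted p = 0.0063), and the log2 ratio of its mean FPKM values, without a pseudocount, was 1.38. PSAT1 (ENSG00000135069, chromosome 9, 78297143 to 78330093, plus strand), of serine synthesis, had 201, 203 and 205 FPKM with the combination and 84.2, 86.4 and 90.2 FPKM with ibrutinib (1.21 ± 0.0475, limma adjusted p = 8.8e-08). The other enzymes with the largest rises were GPT2 (0.89), which makes alanine, the mitochondrial serine to glycine enzyme SHMT2 (0.86) and PHGDH (0.80), the first enzyme of serine synthesis. Those that fell were GOT2 (-0.26), a mitochondrial aspartate transaminase, ALDH18A1 (-0.25), of proline synthesis, GLUL (-0.25), glutamine synthetase, SHMT1 (-0.25), the cytosolic counterpart of SHMT2, and GLUD1 (-0.12), glutamate dehydrogenase, which lost its call in each of the 6 fits without 1 library. These 5, and other members of counts of 5 or fewer, were named after their values were seen.

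Amino acid transporters rose in 10 of 19 tested cases, with a median of 0.23. SLC7A11 (ENSG00000151012, chromosome 4, 138164097 to 138242349, minus strand), which imports cystine, had 5.91, 5.97 and 6.24 FPKM in the combination libraries and 1.49, 1.6 and 1.46 FPKM in the ibrutinib libraries (1.48 ± 0.0549, limma adjusted p = 5.7e-08). All combination values lay well above all ibrutinib values. The glycine transporter SLC6A9 averaged 4.83 ± 0.346 FPKM with the combination and 1.09 ± 0.24 FPKM with ibrutinib (SD, n = 3 each; 1.48). SLC3A2, the shared heavy chain of several transporters, and SLC7A5, its partner for large neutral amino acids, rose by 0.82 and 0.77. The glutamine transporter SLC38A5 was the 1 transporter called lower (-0.20), a call lost without combination library 1, 2 or 3 or ibrutinib library 3.

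The cytoplasmic synthetases that charge transfer RNAs split. Of 20 tested, 11 rose (55%) and 4 fell (20%), against 4.81% and 7.3% of all genes tested. Their median was 0.16, and fits without 1 library called 9 to 11 higher and 3 to 5 lower. WARS (ENSG00000140105, chromosome 14, 100333788 to 100376805, minus strand), the tryptophan synthetase, had 30.5, 30.3 and 30.3 FPKM with the combination, against 7.35, 8.66 and 7.74 FPKM with ibrutinib (1.82 ± 0.0559, limma adjusted p = 1.7e-08). The groups were far apart. SARS (0.75), AARS (0.66) and CARS (0.59), which charge serine, alanine and cysteine transfer RNAs, followed. Those that fell were VARS (-0.38), FARSB (-0.26), FARSA (-0.18) and KARS (-0.18), which charge valine, phenylalanine (FARSA and FARSB are its subunits) and lysine transfer RNAs; KARS lost its call without combination library 1 or 2 or ibrutinib library 2 or 3.

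C/EBP and ATF factors bind together at a composite element, and its core TGATGNAA was searched on both strands of the promoters in the RefSeq table (GRCh38.p14, 250 bases before to 50 bases after the transcript start). It was present in 1003 of 27305 promoters, or 3.67%. It was present in 6 of the 9 matched promoters of synthetases that rose, 3 of 6 of amino acid synthesis enzymes that rose, 3 of 8 of transporters that rose, 2 of 17 of ATF4 and CHOP genes that rose, and 0 of 25 of mitotic genes that fell. A match describes these letters in this window and is not a site shown to be bound. The promoters of CHAC1 (chr15:40953221-40953520, plus strand), ASNS (chr7:97872359-97872658, minus strand), AARS, listed as AARS1 (chr16:70289457-70289756, minus strand), and CARS, listed as CARS1 (chr11:3057374-3057673, minus strand), are shown because these genes rose and hold the core, with the core in capitals, which reads as its reverse complement where it lies on the other strand. Its first match began 209, 68, 187 and 2 bases before the start, in that order of genes.
CHAC1: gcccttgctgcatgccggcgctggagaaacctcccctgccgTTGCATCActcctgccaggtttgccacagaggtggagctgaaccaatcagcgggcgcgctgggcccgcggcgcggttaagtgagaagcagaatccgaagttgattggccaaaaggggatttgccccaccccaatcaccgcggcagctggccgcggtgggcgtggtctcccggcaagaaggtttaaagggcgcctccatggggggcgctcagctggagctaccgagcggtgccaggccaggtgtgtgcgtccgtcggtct
ASNS: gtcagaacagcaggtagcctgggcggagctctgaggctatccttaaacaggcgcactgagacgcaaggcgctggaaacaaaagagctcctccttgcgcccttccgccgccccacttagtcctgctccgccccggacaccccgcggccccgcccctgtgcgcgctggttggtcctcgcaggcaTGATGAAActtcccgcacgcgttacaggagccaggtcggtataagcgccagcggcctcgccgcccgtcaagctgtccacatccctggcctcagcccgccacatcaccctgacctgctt
AARS1: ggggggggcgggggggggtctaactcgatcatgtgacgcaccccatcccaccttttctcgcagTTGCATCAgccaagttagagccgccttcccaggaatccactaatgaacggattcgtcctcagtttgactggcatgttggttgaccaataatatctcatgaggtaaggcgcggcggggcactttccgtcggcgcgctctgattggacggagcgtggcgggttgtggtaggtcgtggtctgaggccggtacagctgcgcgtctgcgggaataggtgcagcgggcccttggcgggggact
CARS1: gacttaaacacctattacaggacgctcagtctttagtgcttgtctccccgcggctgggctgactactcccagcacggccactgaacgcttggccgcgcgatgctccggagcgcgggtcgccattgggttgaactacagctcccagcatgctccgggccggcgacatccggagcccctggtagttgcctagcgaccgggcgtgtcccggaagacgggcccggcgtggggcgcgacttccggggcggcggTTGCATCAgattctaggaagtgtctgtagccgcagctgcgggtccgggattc

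Of 28 tested chaperones, stress sensors and degradation genes of the endoplasmic reticulum, 6 rose and 4 fell, with a median of 0.04. The shares were 21.4% higher and 14.3% lower, against 4.81% and 7.3% of all genes tested. HERPUD1, a membrane protein of the degradation machinery, averaged 16.5 ± 0.545 FPKM with the combination and 6.59 ± 0.332 FPKM with ibrutinib (SD, n = 3 each; log2 change 1.21). EDEM1 (0.61) and SEL1L (0.31), which also serve degradation, and the stress sensor ERN1 (0.48) rose. HSPA5, the main chaperone of the compartment, averaged 80.3 ± 0.839 FPKM with the combination and 89.5 ± 4.17 FPKM with ibrutinib (-0.15, limma adjusted p = 0.024). Its call was lost without combination library 1, 2 or 3 or ibrutinib library 2 or 3, with a highest adjusted p of 0.087. The other 3 called lower were HSP90B1 (-0.26), PDIA3 (-0.20) and ERO1A (-0.18), and the fits without 1 library called 1 to 3 genes lower. PDIA3 lost its call without combination library 1, 2 or 3 or ibrutinib library 2, and ERO1A lost it in each of the 6 fits.

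Genes of mitosis fell almost as a block: 29 of 32 tested were lower with the combination, 0 were higher, and the median change was -0.42. CCNB1 (ENSG00000134057, chromosome 5, 69167010 to 69178245, plus strand), cyclin B1, which drives entry into mitosis, had 32.3, 36.4 and 35 FPKM in the combination libraries, against 65.9, 63.1 and 63.8 FPKM in the ibrutinib libraries (-0.88 ± 0.0457, limma adjusted p = 5.5e-07). PLK1 (ENSG00000166851, chromosome 16, 23677656 to 23690367, plus strand), a mitotic kinase, had 13.8, 13 and 12.5 FPKM with the combination, against 24.6, 24.3 and 25.3 FPKM with ibrutinib (-0.87 ± 0.0436, limma adjusted p = 4.2e-07). CDC20 (ENSG00000117399, chromosome 1, 43358955 to 43363203, plus strand), which activates the anaphase ligase, had 44.2, 44.8 and 44.1 FPKM with the combination, against 72.4, 79 and 75.3 FPKM with ibrutinib (-0.75 ± 0.0333, limma adjusted p = 2.0e-07). For all 3 genes every combination library lay below every ibrutinib library, with little spread in either group. DLGAP5 (-0.86), a spindle protein, the kinesins KIF20A (-0.82) and CENPE (-0.70) and the kinase AURKA (-0.70) also fell. All 6 fits without 1 library called 29 members lower. The 3 members that did not pass were the proliferation marker MKI67 (-0.22) and the transcription factors FOXM1 (-0.05) and MYBL2 (-0.09), which act on cell cycle genes.

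Many mitotic promoters hold the cell cycle genes homology region, TTTGAA, which was searched on both strands in the same windows. It was present in 4212 of the 27305 promoters (15.4%) and in 18 of the 25 matched promoters of mitotic genes that fell (72%). Among genes that rose it was present in 0 of 17 promoters of ATF4 and CHOP genes and 0 of 6 of amino acid synthesis enzymes. It was also present in 3 of 8 of transporters that rose (37.5%) and 1 of 9 of synthetases that rose (11.1%). The letters of these motifs do not allow a match of either to overlap a match of the other, so the absence of overlap is no result. The promoters of PLK1 (chr16:23678639-23678938, plus strand), CDC20 (chr1:43358731-43359030, plus strand) and DLGAP5 (chr14:55191536-55191835, minus strand) are shown as examples among the genes that fell most, with every match of the motif in capitals, either as TTTGAA or, on the other strand, as TTCAAA. PLK1 had 1 match, CDC20 2 and DLGAP5 3, and the first began 29, 178 and 138 bases before the start in that order of genes.
PLK1: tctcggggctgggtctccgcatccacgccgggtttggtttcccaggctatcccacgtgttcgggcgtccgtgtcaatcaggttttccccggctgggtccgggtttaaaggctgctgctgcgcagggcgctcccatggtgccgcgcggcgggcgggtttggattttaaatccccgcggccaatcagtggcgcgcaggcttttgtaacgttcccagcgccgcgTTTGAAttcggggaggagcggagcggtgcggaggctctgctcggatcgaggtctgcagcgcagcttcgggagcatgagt
CDC20: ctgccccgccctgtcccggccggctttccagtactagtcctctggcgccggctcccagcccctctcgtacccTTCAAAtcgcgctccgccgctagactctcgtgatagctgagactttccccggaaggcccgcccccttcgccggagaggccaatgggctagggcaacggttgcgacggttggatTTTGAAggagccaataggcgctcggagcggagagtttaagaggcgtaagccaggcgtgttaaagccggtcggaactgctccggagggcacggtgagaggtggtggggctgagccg
DLGAP5: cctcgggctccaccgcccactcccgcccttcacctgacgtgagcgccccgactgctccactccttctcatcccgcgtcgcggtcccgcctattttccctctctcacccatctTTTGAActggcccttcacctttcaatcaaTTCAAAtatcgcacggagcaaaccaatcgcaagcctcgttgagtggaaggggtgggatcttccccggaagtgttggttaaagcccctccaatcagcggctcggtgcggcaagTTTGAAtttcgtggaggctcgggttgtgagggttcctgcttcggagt

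MYC, the growth regulator, averaged 169.6 ± 1.77 FPKM with the combination and 170.1 ± 1.24 FPKM with ibrutinib (SD, n = 3 each; log2 change -0.00, limma adjusted p = 0.94), so no change was detected. Of 33 tested genes of the MYC network and its induced genes, 15 fell and 2 rose, with a median of -0.15. The shares were 45.5% lower and 6.06% higher, against 7.3% and 4.81% of all genes tested. The transferrin receptor TFRC (-0.60), the nucleoside diphosphate kinase NME1 (-0.54), lactate dehydrogenase LDHA (-0.48) and nucleolin, NCL (-0.38), fell most; NME1 overlaps and resembles NME2, so its reads may be shared. The 2 that rose were MXD4 (0.21), which opposes MYC, and IMPDH2 (0.21), of guanine nucleotide synthesis, whose call was lost without each library but ibrutinib library 2. In ribosome biogenesis 20 of 37 fell and 0 rose (median -0.18), led by MRTO4 (-0.36) and GNL3 (-0.35), which act in the assembly of the large subunit. Purine and pyrimidine synthesis had 15 of 23 lower and 1, IMPDH2, higher (median -0.20), with PAICS (-0.38) and ATIC (-0.32), of purine synthesis, among them.

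DNA replication genes had 19 of 41 lower and 1 higher (median -0.14), led downward by RFC3 (-0.39), a subunit of the clamp loader. The fits without combination library 1, 2 or 3 called 11, 12 and 9 lower, and those without ibrutinib library 1, 2 or 3 called 15, 10 and 10. CDT1, the licensing factor that loads the replicative helicase, was the 1 that rose: it averaged 76.1 ± 1.52 FPKM with the combination and 54.9 ± 0.261 FPKM with ibrutinib (SD, n = 3 each; 0.46, limma adjusted p = 1.3e-05). Among 20 tested G1 cyclins, kinases and inhibitors, cyclin D3 (CCND3, -0.27) and RB1 (-0.14) fell and the inhibitor CDKN2C (0.14) rose. That was 5% higher and 10% lower, near the 4.81% and 7.3% of all genes tested. The call of RB1 was lost in each of the 6 fits without 1 library and that of CDKN2C without combination library 3 or ibrutinib library 1 or 3. That of CCND3 was lost with all 24 libraries in the fit (limma adjusted p = 0.083).

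Of 17 tested heat shock proteins 11 fell and 0 rose (median -0.22), among them HSPH1 (-0.42), STIP1 (-0.33), HSPA8 (-0.31) and HSP90AB1 (-0.28). Glycolysis had 12 of 24 lower and 0 higher (median -0.14), with ENO1 at -0.44 and PGK1 at -0.41; without combination library 1, combination library 2 or ibrutinib library 3, the fits called 7, 8 and 8 lower. Fatty acid synthesis had 6 of 14 lower (median -0.20), with the desaturase SCD at -0.40 and the regulator SREBF1 at -0.36. Cholesterol synthesis and uptake had 8 of 23 lower and 0 higher (median -0.12), with FDPS (-0.32) and HMGCS1 (-0.25) among them. The fits without combination library 1 or 3 or ibrutinib library 2 or 3 each called 5 of these, and those without the other two each called 6. In the proteasome 9 of 33 fell (27.3%, against 7.3% of all genes tested, median -0.12), led by PSME3 (-0.32). Of 38 nuclear genes of the respiratory chain 7 fell (18.4%, median -0.11), with COX7B (-0.49) and COX6C (-0.36) among them. The fits without combination library 2 or ibrutinib library 1 called 4. None of the 13 messengers of the mitochondrial genome passed the test in limma (median -0.07).

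**Figure D3:**
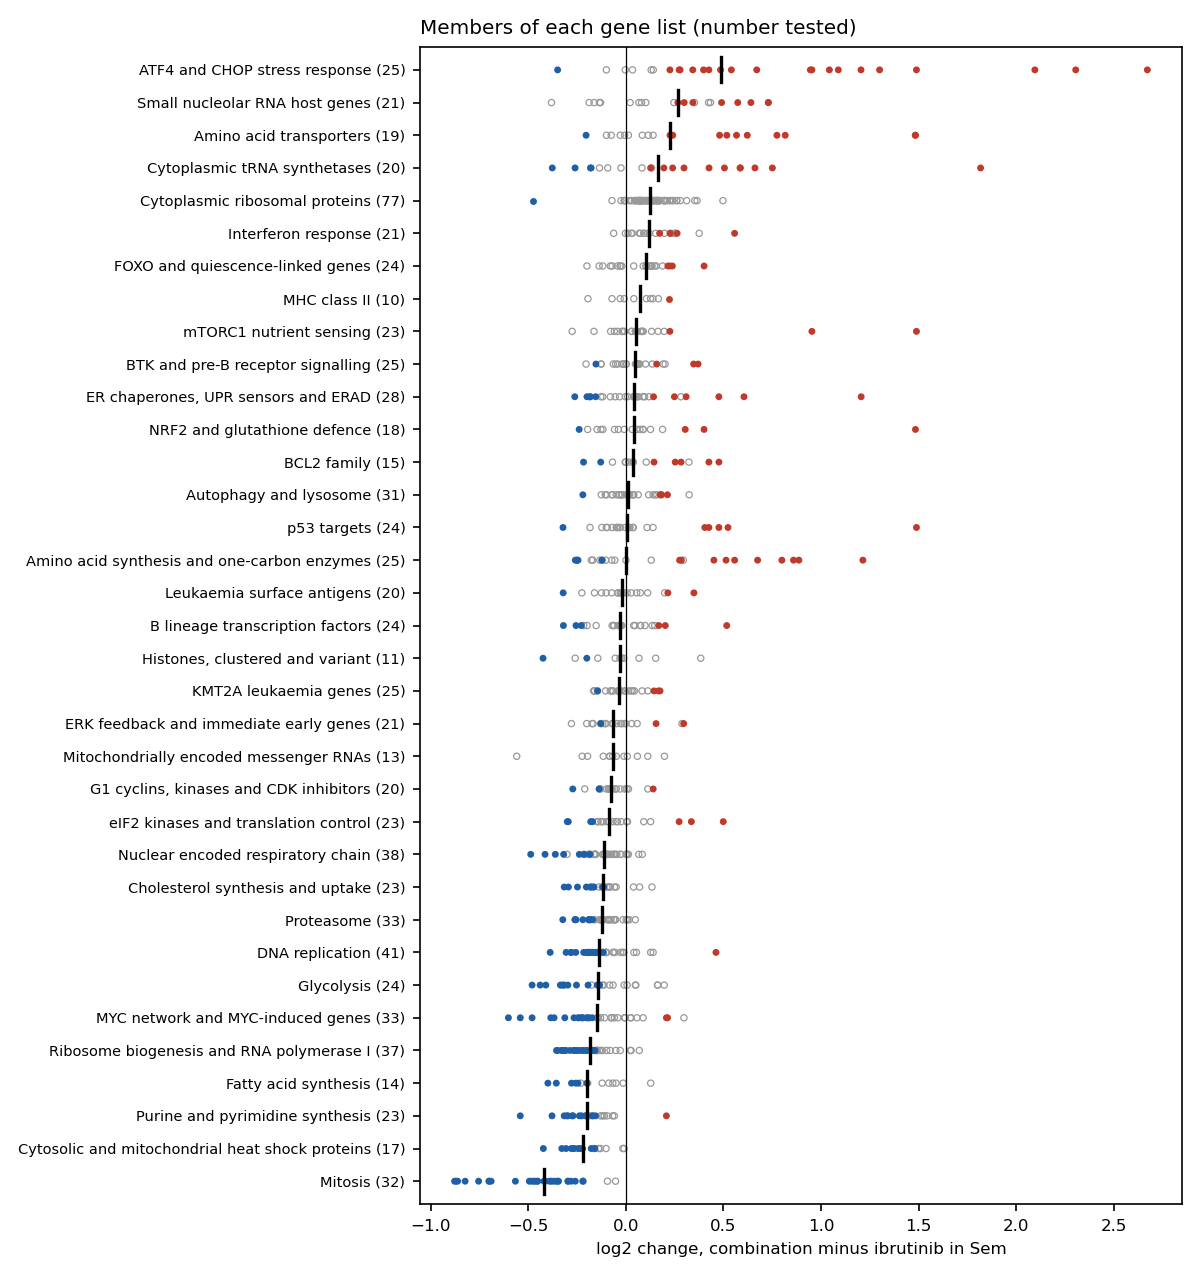
Log2 change (x axis, combination minus ibrutinib) of every tested member of 35 gene lists (rows); filled points passed the test (red higher, blue lower), open points did not, and the black bar is the list's median. The median of the ATF4 and CHOP list lies at 0.49 and that of the mitosis list at -0.42, while the median of all genes tested is -0.00.

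Of 21 tested host genes of small nucleolar RNAs, 8 rose and 0 fell (median 0.27). SNHG7 averaged 49.7 ± 1.33 FPKM with the combination and 29.6 ± 2.19 FPKM with ibrutinib (SD, n = 3 each; 0.73), and SNHG8 averaged 135 ± 2.61 FPKM with the combination and 81.2 ± 6.81 FPKM with ibrutinib (0.73). C6orf48 (0.64) and ZFAS1 (0.57) followed. Among 77 cytoplasmic ribosomal proteins 71 had a positive change and the median was 0.13, while 6688 of all 13417 genes tested had a positive change. These values come from the same 6 libraries, so the signs are not independent of one another. In limma on FPKM 0 were called higher, against 3 with TPM rescaling and 7 with quantile normalization. Only RPS26 was called lower (-0.48). Ribosomal protein genes have many near-identical copies, so their counts are uncertain.

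BTK, the kinase that ibrutinib inhibits in both groups, averaged 35.8 ± 0.576 FPKM with the combination and 37.5 ± 1.85 FPKM with ibrutinib (-0.06, limma adjusted p = 0.3), without a detected change. Of 25 tested genes of BTK and pre-B receptor signalling, 3 rose (12%) and 1 fell (4%), with a median of 0.05. Of all genes tested 4.81% rose and 7.3% fell. The Src family kinase FYN (0.37) and the receptor chain CD79A (0.35) rose in every fit without 1 library; IGHM (0.16), the heavy chain, lost its call without combination library 2 or 3 or ibrutinib library 1 or 3, and PIK3CD (-0.15), which fell, lost it without combination library 1 or 3 or ibrutinib library 2. Among 24 B lineage transcription factors 3 rose and 3 fell (median -0.03, and 0.005 with quantile normalization). IKZF2 averaged 25.3 ± 0.77 FPKM with the combination and 17.4 ± 0.355 FPKM with ibrutinib (SD, n = 3 each; 0.52, limma adjusted p = 2.9e-04) and was the 1 of these 6 called in every fit without 1 library. The summed B cell precursor markers given above were higher with the combination, but CD79A and CD72 are themselves among those markers. The sum is therefore not separate from these changes, and its part in them was not tested. Of 20 leukaemia surface antigens, CD72 (0.35) and the interleukin 7 receptor IL7R (0.22) rose and CD9 (-0.32) fell. These were 10% higher and 5% lower, against 4.81% and 7.3% of all genes tested. The median of this list was -0.02, and 0.00 with quantile normalization. RAG1, of the recombinase, was below the level tested, at 0.103 ± 0.0289 FPKM with the combination and 0.0919 ± 0.0329 FPKM with ibrutinib.

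Of 25 genes tied to leukaemia with KMT2A rearrangement, 3 rose (RUNX2 0.18, BMI1 0.17 and BCL2 0.14) and 1 fell (HOXA9 -0.14), with a median of -0.03. That was 12% higher and 4% lower, against 4.81% and 7.3% of all genes tested. HOXA9 averaged 25.9 ± 0.336 FPKM with the combination and 28.7 ± 1.21 FPKM with ibrutinib (SD, n = 3 each), and its call was lost in each of the 6 fits without 1 library (highest adjusted p 0.15). These fits called 0 to 2 members higher. Its cofactor MEIS1 (0.01) and the receptor kinase FLT3, at 576 ± 15.8 FPKM with the combination and 562 ± 15.7 FPKM with ibrutinib (0.04), did not pass the test.

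In the BCL2 family, which sets the threshold for cell death, 5 of 15 rose (33.3%) and 2 fell (13.3%). Over all genes tested the shares were 4.81% higher and 7.3% lower. PMAIP1, which encodes the death promoter NOXA, averaged 51.7 ± 1.22 FPKM with the combination and 36.9 ± 1.02 FPKM with ibrutinib (SD, n = 3 each; 0.48, limma adjusted p = 9.7e-06). BMF (0.28) and BBC3 (0.43), also death promoters, and BCL2L1 (0.25) and BCL2, which protect, rose, and MCL1 (-0.13), which protects, and BID (-0.22), which promotes death, fell. MCL1 lost its call without combination library 1, 2 or 3 or ibrutinib library 1 or 3 and with quantile normalization, with a highest adjusted p of 0.169 in limma. The fits without combination library 1, 2 or 3 or ibrutinib library 2 called 3 of the 5 higher and that without ibrutinib library 1 called 2. Of 24 p53 targets 5 rose (TP53I3 0.52, TP53INP1 0.40, BBC3, SESN2 and PMAIP1) and 1, AEN (-0.32), fell. The shares were 20.8% higher and 4.17% lower, the latter below the 7.3% of all genes tested. Without combination library 1, 2 or 3 the targets called higher numbered 3, 2 and 3, and without ibrutinib library 1 or 3 they numbered 2 and 3. TP53INP1 lost its call without each library but ibrutinib library 2, with a highest adjusted p of 0.099. CDKN1A, the p53 target that blocks cyclin kinases, did not pass (-0.10).

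The lists that follow had few calls, and of all genes tested 4.81% rose and 7.3% fell. Autophagy and lysosome genes, with 9.68% higher and 3.23% lower, lay near these shares together, so such counts are not read as list results. Of 21 interferon response genes 4 rose, among them IRF7 (0.56), STAT2 (0.23) and HLA-B (0.17). STAT2 lost its call without combination library 2 or 3 or ibrutinib library 1 or 3, and HLA-B without combination library 1 or 3 or ibrutinib library 1 or 2. Of 24 FOXO and quiescence genes YPEL5 (0.40), ZFP36L1 (0.24), SESN3 and IL7R rose, and fits without 1 library called 2 or 3 of these 4. Of 18 genes of NRF2 and glutathione defence NQO1 (0.40), FTH1 (0.30) and SLC7A11 rose and PRDX1 (-0.24) fell. Of 10 tested class II HLA genes HLA-DPB1 (0.22) rose, a call lost without 5 of the 6 libraries, all but ibrutinib library 2. Of 31 autophagy and lysosome genes TFE3 (0.21), NPC1 (0.18) and SQSTM1 (0.18) rose and GLA (-0.22) fell, and 1 or 2 were called higher without 1 library. Of 21 genes of ERK feedback JUN (0.30) and IER5 (0.15) rose and MCL1 fell, with 0 or 1 called in either direction without 1 library. Of 11 histone genes H2AFX (-0.20) and HIST1H2BK (-0.42) fell. The call of H2AFX was lost with all 24 libraries in the fit (limma adjusted p = 0.21). That of HIST1H2BK was lost without every library but combination library 3. HLA and histone genes resemble one another closely, so their counts are uncertain.

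Some genes with the largest changes lay outside these lists. SPNS3, a transporter of the spinster family, averaged 13.2 ± 0.659 FPKM with the combination and 3.51 ± 0.455 FPKM with ibrutinib (1.66, limma adjusted p = 3.3e-07). ULBP1, a stress ligand of the receptor NKG2D on natural killer cells, averaged 6.29 ± 0.515 FPKM with the combination and 2.03 ± 0.283 FPKM with ibrutinib (1.27). The semaphorin receptor PLXNA1 (1.24) rose too, as did NDUFA4L2 (1.23), which lies beside SHMT2 on chromosome 12 and may share its reads, since the sources do not state whether the libraries kept the strand. On the falling side, the importin KPNA2 (ENSG00000182481, chromosome 17, 68035519 to 68046842, plus strand) had 45.1, 46.1 and 43.9 FPKM with the combination, against 72.7, 73.9 and 73.6 FPKM with ibrutinib (-0.69 ± 0.0282, limma adjusted p = 1.2e-07). The helicase PIF1 (-0.84) and the spindle protein PSRC1 (-0.77) fell as well. The naming rule asked that the libraries of the groups not overlap for the 10 largest rises and falls, so their separation is no added result; among all genes tested, 2129 (15.9%) were higher and 2385 (17.8%) lower in every combination library than in every ibrutinib library.

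The genes called lower were, at the median, more highly expressed than those called higher: their median was 18.3 FPKM with the combination and 22.1 FPKM with ibrutinib, while that of genes called higher was 10.7 FPKM with the combination and 8.09 FPKM with ibrutinib. Median GC content was 51.1% among genes called higher, 46.6% among those called lower and 48.3% among all genes tested. Median gene lengths were close, at 4598, 4547 and 4161 bases in the same order. Correcting for GC content and length left 738 genes called higher and 1052 lower.

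Without ibrutinib, asparaginase moved many of the same genes. Asparaginase alone was set against untreated Sem cells, a comparison that shares no library with the first, and 1525 genes (11.4%) were higher and 2023 (15.1%) lower. Of the 645 genes that rose on ibrutinib, 427 also rose without it, 10 fell and 208 were not called; the 427 are 66.2% of the first set and 28% of the second. Of the 979 that fell on ibrutinib, 707 also fell without it and 5 rose; the 707 are 72.2% and 34.9% of the sets. Mitosis had 29 of 32 lower in both comparisons, with medians of -0.42 on ibrutinib and -0.34 without it.

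The difference between the 2 asparaginase changes, with ibrutinib minus without, was itself tested in limma and called 206 genes (1.54%), 102 more positive (0.76%) and 104 more negative (0.775%) on ibrutinib. For the amino acid response, the rise on ibrutinib was the smaller one: 9 of 25 ATF4 and CHOP genes, 7 of 25 amino acid synthesis enzymes, 9 of 19 transporters and 4 of 20 synthetases had a called negative difference, against 1, 0, 0 and 0 with a positive one. The 12 fits that each left out 1 Sem library called 6 to 9, 3 to 6, 4 to 8 and 3 to 5 negative differences in these lists, with the fewest in all 4 lists without combination library 3 (6, 3, 4 and 3); for the synthetases, TPM rescaling called 10, quantile normalization and limma-voom 9 each, GC and length correction 8, and a fit of all 24 libraries and a filter of 5 FPKM 7 each. CHAC1 averaged 14.1 ± 1.96 FPKM with the combination and 2.05 ± 0.245 FPKM with ibrutinib, and 24 ± 1.79 FPKM with asparaginase and 1.65 ± 0.311 FPKM untreated (SD, n = 3 each). Its change was 2.31 on ibrutinib and 3.24 without it (difference -0.94, limma adjusted p = 0.016). SLC7A11 changed by 1.48 on ibrutinib and 2.40 without it (difference -0.92, adjusted p = 5.0e-04), SLC6A9 by 1.48 on ibrutinib and 2.47 without it (difference -0.99) and ATF5 by 2.67 on ibrutinib and 3.08 without it (difference -0.40, adjusted p = 0.013). UNC5B, a netrin receptor, had a difference of -0.92 that was lost with a pseudocount of 0.1 (-0.66, adjusted p = 0.12) and in limma-voom on recovered reads (-0.57, adjusted p = 0.10), while RGS16, a regulator of G protein signalling, had one of -0.86.

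Cholesterol genes and the surrogate light chain differed the other way. On ibrutinib 8 of 23 cholesterol genes fell (median -0.12), and without it 21 fell (median -0.43); 11 had a called positive difference and 0 a negative one, against 9 with TPM rescaling, 8 with quantile normalization and 7 to 13 in the fits without 1 Sem library. The fits that called 7 were those without combination library 2 or 3, ibrutinib library 3, asparaginase library 1 or 2 or untreated library 3. IGLL1, part of the pre-B receptor and a gene with near-identical copies, averaged 333 ± 11.3 FPKM with the combination and 322 ± 5.24 FPKM with ibrutinib (0.05, limma adjusted p = 0.53), but 77.2 ± 3.98 FPKM with asparaginase and 165 ± 5.82 FPKM untreated (-1.08); the difference was 1.13 (adjusted p = 2.0e-05). Rescaling to TPM called 68 genes more positive and 348 more negative, and moved the median difference over all genes to -0.08, and quantile normalization called 93 and 156. The number of called differences moved with single libraries, from 73 without combination library 3 to 369 without untreated library 2. It was 122 and 94 without combination libraries 1 and 2, 92, 116 and 96 without ibrutinib libraries 1, 2 and 3, 101, 101 and 146 without asparaginase libraries 1, 2 and 3, and 112 and 99 without untreated libraries 1 and 3.

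**Figure D4:**
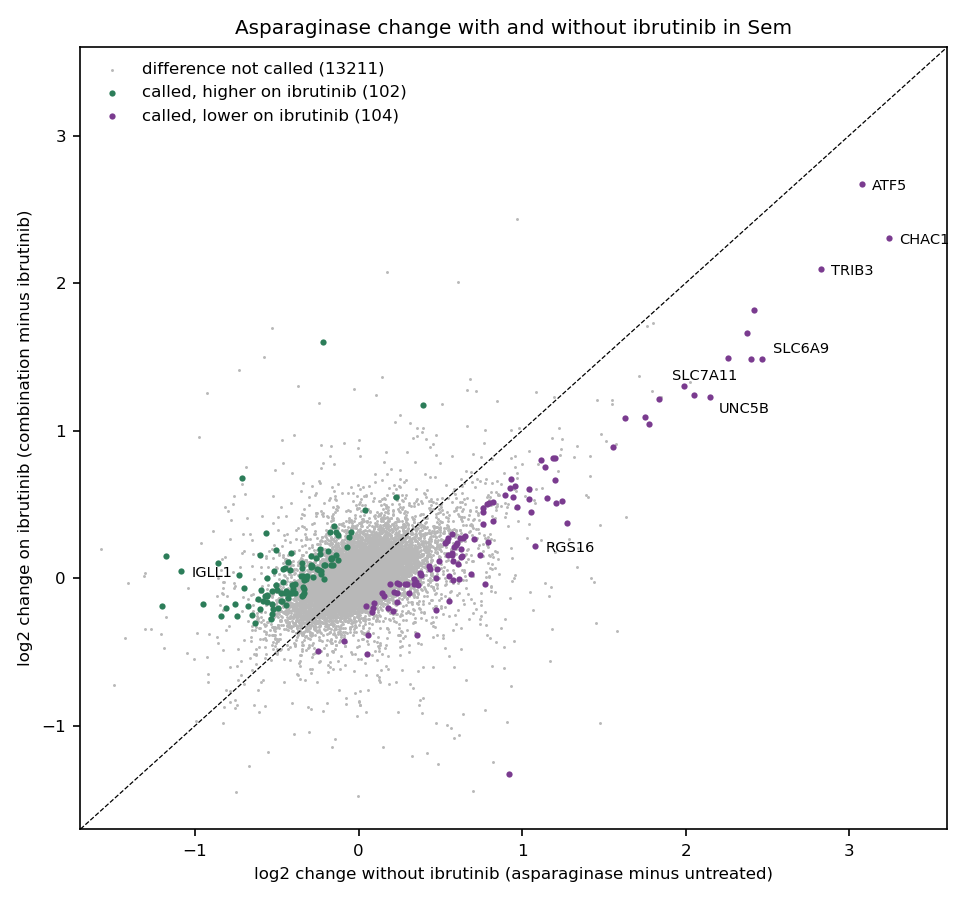
Log2 change with asparaginase on ibrutinib (y axis, combination minus ibrutinib) against that without ibrutinib (x axis, asparaginase minus untreated), 1 point a gene; the dashed line marks equal changes. Genes with a called difference are green (102, more positive on ibrutinib) or purple (104, more negative), and stress and amino acid genes such as CHAC1 and SLC7A11 lie below the line while IGLL1 lies above it.

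Nalm6 cells given the same pair of treatments changed far more genes: 3906 rose (29.5% of 13237 tested) and 3662 fell (27.7%), 57.2% together. The difference between the lines in this change, Sem minus Nalm6, was tested in limma over 15116 genes and all 24 libraries, and 5957 (39.4%) were called, 3026 more positive (20%) and 2931 more negative (19.4%) in Sem; TPM rescaling called 2314 and 3593. Mitotic genes had 29 of 32 lower in Sem, and 11 higher and 11 lower in Nalm6 (medians -0.42 in Sem and 0.07 in Nalm6), with 20 differences called negative and 3 positive. DNA replication genes fell by a median of 0.14 in Sem and of 0.91 in Nalm6, and all 41 differences were called positive. Ribosome biogenesis (medians -0.18 in Sem and -0.85 in Nalm6), MYC genes (-0.15 in Sem and -0.995 in Nalm6) and synthetases (0.16 in Sem and -0.32 in Nalm6) had 34 of 37, 26 of 33 and 19 of 20 positive differences. With TPM rescaling these lists had 34, 25 and 16, and with quantile normalization 33, 25 and 14, so the synthetase count depended on the scaling. Class II HLA genes rose in Nalm6 (9 of 9, median 0.95) and in 1 of 10 cases in Sem (median 0.07), with 9 of 10 differences negative.

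ATF5, the gene with the largest rise in Sem, averaged 91.1 ± 2.83 FPKM with the combination and 13.4 ± 0.109 FPKM with ibrutinib in Sem, and 249.5 ± 19.4 FPKM with the combination and 194 ± 4.35 FPKM with ibrutinib in Nalm6 (SD, n = 3 each; changes 2.67 in Sem and 0.36 in Nalm6, difference 2.32, limma adjusted p = 1.0e-12). Nalm6 had more ATF5 RNA with ibrutinib alone than Sem had with both drugs. PPP1R15A averaged 14.1 ± 0.453 FPKM with the combination and 10.9 ± 0.801 FPKM with ibrutinib in Sem, and 53.8 ± 1.28 FPKM with the combination and 9.2 ± 0.858 FPKM with ibrutinib in Nalm6 (difference -2.09, adjusted p = 3.3e-10). LGALS1, galectin 1, averaged 72.6 ± 5.22 FPKM with the combination and 80.3 ± 1.05 FPKM with ibrutinib in Sem, and 11.1 ± 0.688 FPKM with the combination and 1.73 ± 0.397 FPKM with ibrutinib in Nalm6 (difference -2.30). Across the lists of amino acid genes the medians were 0.49 in Sem and 0.64 in Nalm6 for ATF4 and CHOP genes, with 11 differences positive and 8 negative of 25. TPM rescaling gave 10 positive and 11 negative for that list and quantile normalization 9 and 11, so it had no direction that held under every scaling. For amino acid synthesis enzymes the medians were 0.00 in Sem and -0.37 in Nalm6, with 19 differences positive and 2 negative of 25.

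**Figure D5:**
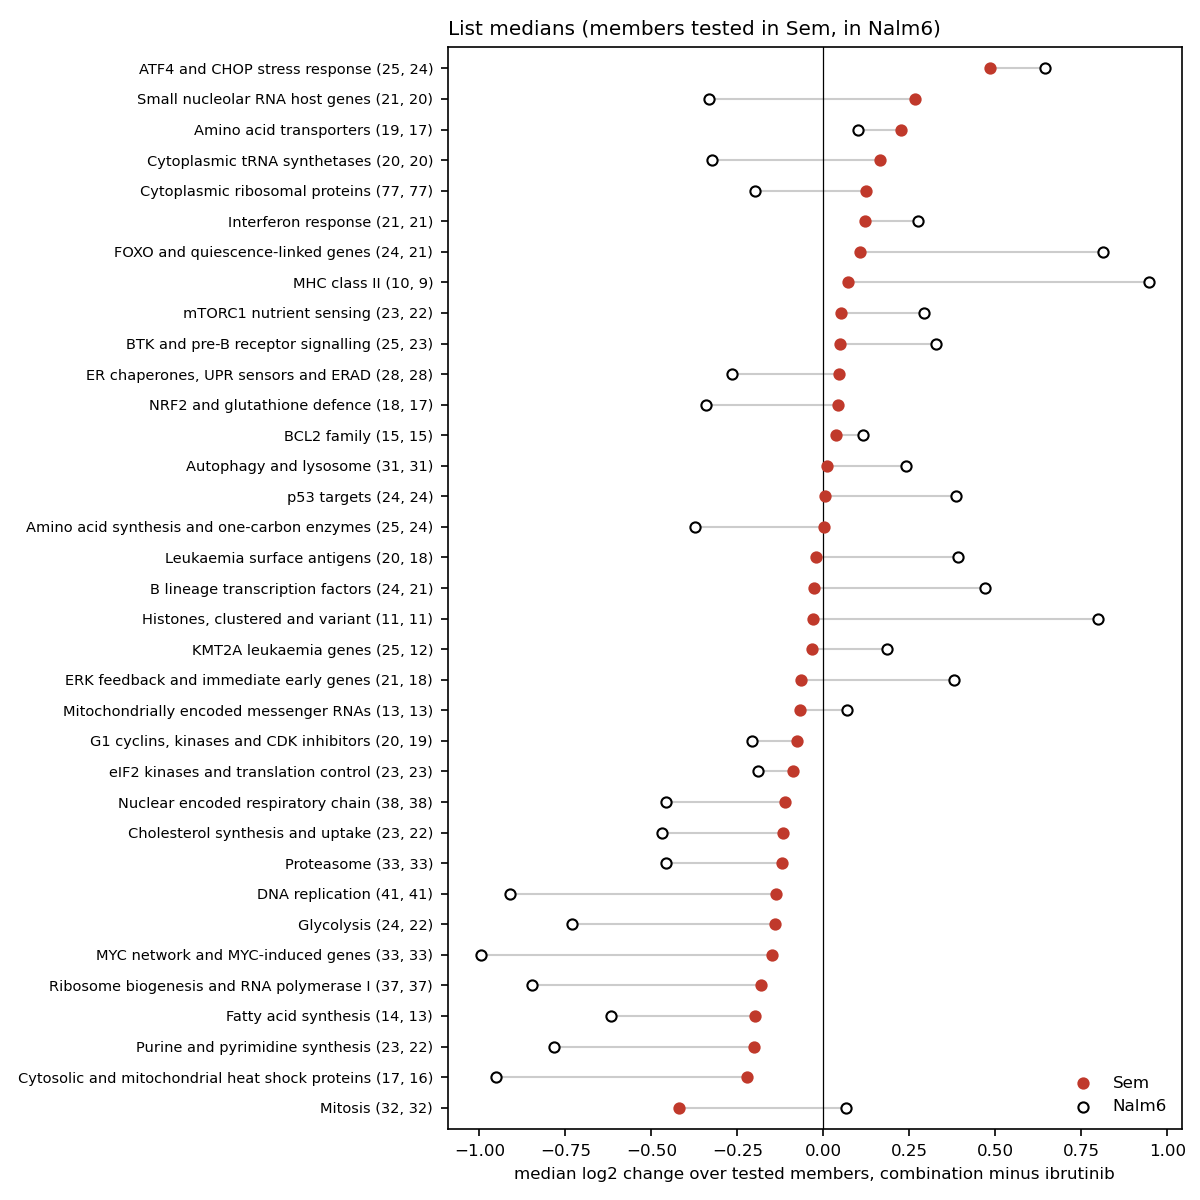
Median log2 change, combination minus ibrutinib, (x axis) of each gene list (rows) in Sem (filled red) and Nalm6 (open). The medians lie at 0.49 in Sem and 0.64 in Nalm6 for the ATF4 and CHOP list, at -0.14 in Sem and -0.91 in Nalm6 for DNA replication, and at 0.07 in Sem and 0.95 in Nalm6 for class II HLA genes.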

How the data were processed

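RNA was sequenced from 24 libraries, 3 for each of 4 treatments in Sem and in Nalm6. The authors deposited FPKM per gene, and per the submitters' processing notes they used fastp, STAR, featureCounts and hg38; versions, the annotation and the strand setting are not given in the sources used here. All 58735 gene identifiers matched GENCODE 29. Of the deposited values, 299165 of 1409640 (21.2%), all of 1 or more, had lost the decimal point. Intact values were whole reads times a step per library, so the power of 10 of each damaged value was chosen, jointly over the libraries of a gene and line, as the one that gave whole reads and fitted best. In the 6 libraries compared, 76186 values were restored. In Sem 231 restored values, in 140 genes, had a posterior under 0.99. Genes holding one were not named in the report, apart from called ones listed at its end without their changes. Among restored reads, 10.2% in the 6 libraries were multiples of 10.

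Genes with at least 1 FPKM in at least 3 of the 12 Sem libraries were fitted by limma 3.58.1 (R 4.3.3, trend, 8 residual degrees of freedom) on log2(FPKM + 1). Tests were two-sided and p-values were adjusted by Benjamini and Hochberg's method over all genes of a fit; called means an adjusted p under 0.05. The difference between lines used all 24 libraries (16 residual degrees of freedom). The steps were tested on simulated data. The gene lists and members were chosen with earlier results of these data known. Named genes are the 10 largest rises and the 10 largest falls (called, at least 5 FPKM in the higher group, no overlap between groups, called in every fit without 1 library, no uncertain decimal), 14 genes set by name, up to 4 called members and the first gene of each list, and 6 genes of each difference; others were named after their values were seen, and some genes that the rule picks are not reported here. Alternatives were a pseudocount of 0.1, filters of 0 and 5 FPKM, TPM rescaling, quantile normalization, limma-voom on recovered reads, a replicate block, GC and length correction, other sets of libraries in the fit, genes of certain decimal place alone, and leaving out each library. Genes with overlapping antisense partners, and those with near-identical copies, may share reads.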

Additional observations from a re-analysis of the deposited data

Results flagged for a closer look

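The change with asparaginase in Sem differed according to whether ibrutinib was present, by a limma test of the difference itself, for 206 genes. Among these the log2 difference, with minus without ibrutinib, was -0.94 for CHAC1, -0.92 for SLC7A11, -0.99 for SLC6A9, -0.92 for UNC5B, -0.86 for RGS16 and 1.13 for IGLL1. Over the alternatives it ranged from -1.11 to -0.81 for CHAC1, from -1.51 to -0.85 for SLC7A11 and from 0.95 to 1.17 for IGLL1, and stayed past the threshold for these 3.

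The change on ibrutinib differed between Sem and Nalm6, again by a limma test of the difference itself, for 5957 genes. The log2 difference, Sem minus Nalm6, was 2.32 for ATF5, -2.09 for PPP1R15A, -2.30 for LGALS1, -2.57 for RNU6-1053P and 2.26 for RNU4-5P. For TSPAN8, a tetraspanin at 0 in all 12 Sem libraries, the value of -2.10 is the Nalm6 change with its sign turned, and tests no difference in response between the lines. TSPAN8 averaged 11.3 ± 1.34 FPKM with the combination and 1.86 ± 0.107 FPKM with ibrutinib in Nalm6 (SD, n = 3 each). RNU6-1053P and RNU4-5P are short copies of small nuclear RNA genes, whose reads cannot be placed with certainty. The difference of RNU4-5P lost its call with a pseudocount of 0.1 (3.18, adjusted p = 0.086 in limma).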

How the results depend on the processing

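No called change of a gene picked by the naming rule turned its sign under any alternative run. Of 138 called genes picked by that rule, 97 stayed called under every alternative, 36 were lost without at least 1 library and 5 under another setting alone. Genes named only after their values were seen are not in these counts. For the combination against ibrutinib, the fits without 1 library called 1039 to 1178 genes, 374 to 463 higher and 614 to 758 lower, against 1624, 645 and 979 with every library; these fits hold fewer samples. No other setting moved those counts by over 1.5 times, limma-voom on recovered reads giving the most (935 higher and 1200 lower) and the fit with no filter the fewest (479 and 733). For the difference with minus without ibrutinib, TPM rescaling called 416 genes, 348 of them lower, limma-voom 536 (257 higher and 279 lower) and no filter 136 (65 higher), and a filter of 5 FPKM called 156 higher; the cause was not tested. The fits without 1 library called 73 to 369 genes, 33 to 201 higher and 40 to 168 lower. Replicate numbers are not stated to pair the samples. Deviations of same-numbered combination and ibrutinib libraries correlated across genes at 0.0859, 0.0306 and 0.0348. Those of unlike-numbered libraries correlated at -0.0191, -0.0699, -0.0651, -0.0241 and -0.0101, and at 0.0371 for combination library 2 with ibrutinib library 3. The main fit did not take the numbers as pairs. With the replicate block 1769 genes were called, 692 higher and 1077 lower. At 15 to 18.1 M reads a library, small changes of genes of low FPKM are the least certain.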

Other observations

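Some listed genes lay below the level tested and are given as values. FOXO1, a transcription factor of quiescence, averaged 0.766 ± 0.0423 FPKM with the combination and 1.02 ± 0.0908 FPKM with ibrutinib in Sem (SD, n = 3 each). Every combination library was below every ibrutinib library, a separation that 17.8% of the genes tested also had, and FOXO1 itself was not tested. DUSP4, a phosphatase that ERK signalling induces, averaged 0.423 ± 0.0751 FPKM with the combination and 0.26 ± 0.0541 FPKM with ibrutinib, and cyclin D1 (CCND1) averaged 0.153 ± 0.0823 FPKM with the combination and 0.0831 ± 0.0513 FPKM with ibrutinib.

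MZB1, a chaperone of immunoglobulin assembly listed among plasma cell markers, averaged 64.6 ± 1.48 FPKM with the combination and 52.5 ± 0.164 FPKM with ibrutinib (0.29, limma adjusted p = 9.1e-05), and 33.1 ± 0.674 FPKM with asparaginase and 36.2 ± 0.356 FPKM untreated (-0.13); the difference was called (adjusted p = 6.9e-04). TRAC, the constant region of the T cell receptor alpha chain, averaged 86.8 ± 1.3 FPKM with the combination and 74.3 ± 3.97 FPKM with ibrutinib (0.22, limma adjusted p = 0.012), while CD3D was at 0; with all 24 libraries in the fit its call was lost (adjusted p = 0.34). Among genes called for the combination against ibrutinib, TWISTNB, CORO1C, PDS5B, MIR641, TRAJ21 and 1 clone-named gene held a restored value of uncertain decimal place, so their changes are not given.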
